A study of Mus musculus with 57 samples.

Results

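Border-associated macrophages are the resident macrophages of the meninges, the spaces around brain vessels and the choroid plexus. The 10 genes followed here, Mrc1, Lyve1, Cd163, Pf4, F13a1, Cbr2, Ms4a7, Stab1, Clec10a and Folr2, are commonly used to tell them from microglia, and were taken by symbol from a list. All 10 were present in both count tables, out of 50565 genes in the table of the sex experiment and 53278 in the table of the LPS experiment, and all 10 were among the genes tested in each.

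The libraries hold RNA of CD11b-positive brain cells, given as microglia in the labels, from wild-type (WT) mice and from littermates that lack P2RY12 (KO), a receptor for extracellular nucleotides carried by microglia. CD11b is a surface protein of microglia, monocytes, neutrophils and border macrophages alike. In the sex experiment there were 4 WT and 5 KO males and 4 WT and 5 KO females, all adult, with no treatment given in the labels. The LPS experiment held 8 WT ns, 8 WT LPS (9 libraries, of which the pair WT LPS 8 and WT LPS 9 was summed), 8 KO ns and 8 KO LPS samples, where LPS, the lipopolysaccharide of bacterial outer membranes, was given intraperitoneally at 1 mg/kg. What ns stands for is not stated in the labels, which give no sex for the LPS experiment, no time after the injection and no age in numbers, and leave out how the P2ry12 allele was made. Where nothing in the labels says that samples of a group came from separate animals, p-values measure the spread between these samples.

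Border-associated macrophages share an origin and many genes with microglia but sit outside the brain tissue proper, where they take up material from fluid and blood. Most of the listed genes encode parts of that uptake and of the exchange with vessels: MRC1 (CD206) is the mannose receptor, CLEC10A another lectin of the cell surface, CD163 the receptor for haemoglobin bound to haptoglobin, LYVE1 a hyaluronan receptor, STAB1 a scavenger receptor and FOLR2 a folate receptor. PF4 is a chemokine best known from platelets, F13A1 the catalytic subunit of a clotting factor also made by monocytes, CBR2 a carbonyl reductase and MS4A7 a membrane protein of the MS4A family. In bulk RNA, fewer cells of a type and less RNA per cell cannot be told apart.

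The stretch of 250 bases before the start site is shown for 3 of the genes, Mrc1 and Pf4 because they were lower with LPS in both genotypes without the WT libraries of number 2 described below, and Cd163 because it was not called in either. They are given 5′ to 3′ on the strand of the gene, as RefSeq has them for the build GRCm38.p6, with capitals on matches to 3 short motifs, GAGGAAG (the type bound by PU.1, a factor of all macrophages), TGCTGA (the core of the element bound by MAF factors) and TTCNNNGAA (the type bound by STAT factors), searched on both strands. The windows are chr2:14229164-14229413 (plus strand) for Mrc1, chr5:90772185-90772434 (plus strand) for Pf4 and chr6:124304401-124304650 (plus strand) for Cd163.
Mrc1: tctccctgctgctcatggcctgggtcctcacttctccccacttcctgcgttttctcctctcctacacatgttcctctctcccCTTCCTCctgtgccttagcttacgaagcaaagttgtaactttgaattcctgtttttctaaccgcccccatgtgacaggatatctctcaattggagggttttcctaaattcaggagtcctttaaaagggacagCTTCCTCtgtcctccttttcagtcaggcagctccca
Pf4: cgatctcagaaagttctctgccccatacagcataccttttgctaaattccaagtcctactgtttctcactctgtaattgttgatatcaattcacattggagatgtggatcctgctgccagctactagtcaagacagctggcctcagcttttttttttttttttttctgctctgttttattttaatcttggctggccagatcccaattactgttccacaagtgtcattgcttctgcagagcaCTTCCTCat
Cd163: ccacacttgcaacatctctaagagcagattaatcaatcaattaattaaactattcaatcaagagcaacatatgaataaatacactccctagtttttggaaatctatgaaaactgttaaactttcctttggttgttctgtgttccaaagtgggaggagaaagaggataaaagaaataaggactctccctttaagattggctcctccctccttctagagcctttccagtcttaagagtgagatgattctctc
RefSeq start sites matched 8 of the 10 genes by symbol, with 11 windows in all. Mrc1 held GAGGAAG on the opposite strand at 2 places and Pf4 at 1, and Cd163 held none of the 3 motifs. GAGGAAG lay in a window of Mrc1, Pf4, F13a1 and Cbr2, against 10.6% of all 32851 windows of this length. TGCTGA lay in windows of Folr2 and Stab1, against 16.1% of all windows, and TTCNNNGAA in none of the 11, against 7.02% of all windows. Lyve1 and Clec10a had no entry. These matches describe the letters of the windows only.

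In the sex experiment P2ry12 separated the genotypes, with 3007 to 5928 CPM in the 8 WT animals and 309 to 526.4 in the 10 KO animals (CPM, the usual unit of counts scaled to library size, here with TMM-adjusted totals). In the LPS experiment, P2ry12 and Saa3, an acute-phase gene, went against the treatment label in the 4 WT libraries whose name carries library number 2, which are therefore given apart. Those labelled WT ns 1 and WT ns 5 held 481 and 927 CPM of P2ry12 and 1781 and 2491 CPM of Saa3. Those labelled WT LPS 1 and WT LPS 6 held 4461 and 12154 CPM of P2ry12 and 1.59 and 3.21 CPM of Saa3. The other 6 WT ns libraries held 3516 to 5406 CPM of P2ry12 and 1.52 to 64.4 of Saa3, and the other 6 WT LPS libraries 400.3 to 1063 and 1418 to 9720. All 16 KO libraries were on the side of their treatment label for Saa3, at 0.861 to 3.24 CPM in KO ns and 1024 to 3698 in KO LPS. Totals were 58539820 to 318509775 counts per library in the sex experiment and 15912288 to 168443379 in the LPS experiment, and the lowest count of any of the 10 genes in a library was 296 (Pf4) and 19 (Folr2) respectively. Most low counts were even in the sex experiment and not in the LPS experiment, so these counts are not compared between them. In the LPS experiment 5 libraries, 2 of them WT libraries of number 2, held little RNA of long transcripts: the slope of log2 CPM on log2 exon length was -0.70 in WT LPS 7, -0.61 in KO ns 6, -0.50 in WT LPS 6, -0.34 in KO LPS 5 and -0.18 in WT ns 5, and above -0.05 in the other 27 samples. Results of the LPS experiment are given with and without these libraries.

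With LPS, KO cells had lower RNA of the lectins Mrc1 and Clec10a and of Pf4 and Ms4a7, while Cd163, Lyve1, F13a1, Cbr2, Folr2 and Stab1 were not called. In this comparison 4 of the 10 genes passed an adjusted p of 0.05, all 4 lower, where 22.3% of the 15857 genes tested passed and 12% passed as lower (edgeR's quasi-likelihood test, Benjamini-Hochberg adjustment over all genes tested). The median log2 fold change of the 10 genes was -0.46, beside -0.02 over all genes tested. The 4 genes that fell and the others were not tested against each other.

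Mrc1 (chromosome 2, 14234225 to 14336834 on the plus strand of GRCm39) was at 119, 219 and 341 CPM in KO ns (lowest, median and highest of 8) and at 47.2, 63.0 and 164 in KO LPS. The highest KO LPS library, KO LPS 5 at 164 CPM, overlapped the KO ns range, and the other 7 lay below every KO ns library. The log2 fold change was -1.56 ± 0.45 (SE, adjusted p = 0.0131), and it was -1.53 within library set 1 and -1.48 within library set 2. Neither of these within-set values was called (adjusted p = 0.0996 and 0.300), and both were once the WT libraries of number 2, which share the estimate of spread, were left out (-1.51 and -1.50, adjusted p = 0.000153 and 0.0345).

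Clec10a (chromosome 11, 70057449 to 70061662, plus strand) was at 10.1, 17.1 and 42.6 CPM in KO ns and at 2.19, 4.67 and 11.6 in KO LPS. KO LPS 8, at 11.6 CPM, was the 1 library inside the KO ns range. The log2 fold change was -2.05 ± 0.55 (adjusted p = 0.00789), with -1.73 in set 1 and -2.22 in set 2. As for Mrc1, neither within-set value was called (adjusted p = 0.0863 and 0.243), and both were with the WT libraries of number 2 left out (-1.70 and -2.28, adjusted p = 6.21e-05 and 0.0352). The same held for Pf4, at -2.05 and -2.53 (adjusted p = 0.0763 and 0.249) and, with those libraries left out, at -2.03 and -2.60 (adjusted p = 0.000179 and 0.0238). Clec10a and Mgl2 are close paralogues, so reads may be shared between them. Dendritic cells also make Clec10a, and over the 7 dendritic cell markers the summed level was 28.8 to 61.5 CPM in KO ns and 8.28 to 17.8 in KO LPS. Of these, Cd209a, made by some dendritic cells and macrophages, was at 6.43 to 48.3 CPM in KO ns and at most 0.200 in KO LPS, and Flt3, a receptor of dendritic cells, at 3.34 to 9.11 and 0.874 to 3.23. Zbtb46, a transcription factor of conventional dendritic cells, was at 4.02 to 9.23 and 3.07 to 9.13. The part of dendritic cells in the fall of Clec10a was not tested.

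Pf4 (chromosome 5, 90920362 to 90921242, plus strand) was at 6.99, 16.6 and 53.2 CPM in KO ns and at 1.35, 2.94 and 9.56 in KO LPS. The 2 extremes, KO ns 6 at 53.2 and KO LPS 5 at 9.56, were both libraries with few long transcripts, and Pf4 has the shortest exons of the 10 genes, 700 bases in all. The log2 fold change was -2.37 ± 0.65 (adjusted p = 0.00959), and without these libraries and the WT libraries of number 2 it was -2.39 ± 0.28 (adjusted p = 1.98e-07). Without them the KO LPS range of Pf4, 1.35 to 4.00 CPM, lay below the KO ns range, 6.99 to 24.1. Platelets carry Pf4, and the summed level of 7 platelet markers was 18.2 to 42.0 CPM in KO ns and 4.61 to 7.67 in KO LPS, most of it from Gp9, at 15.4 to 41.0 and 3.15 to 5.09. The platelet chemokine Ppbp was at or below 0.379 CPM and the receptors Gp5 and Gp6 at or below 0.154 and 0.119 in all 16 KO samples.

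Ms4a7 (chromosome 19, 11298403 to 11313510, minus strand) was at 11.2, 18.9 and 79.9 CPM in KO ns and at 4.25, 7.10 and 26.4 in KO LPS. Its log2 fold change of -1.36 ± 0.50 passed narrowly (adjusted p = 0.04995), and the extremes were again KO ns 6 and KO LPS 5. The call was lost in 7 of 18 alternatives: with RLE scaling (-1.37), without a filter on low counts (-1.34), without the library set in the model (-1.44), with the summed pair of WT LPS libraries taken as separate samples (-1.36), in library set 1 alone (-1.16), in set 2 alone (-1.40), and in set 2 alone with the WT libraries of number 2 left out (-1.49). In the fit without the WT libraries of number 2 it was -1.31 ± 0.35 (adjusted p = 0.00585).

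The 6 other genes gave log2 fold changes of -0.50 ± 0.51 for Lyve1, -0.18 ± 0.32 for Cd163, -0.01 ± 0.27 for F13a1, -0.38 ± 0.39 for Cbr2, -0.43 ± 0.39 for Folr2 and 0.69 ± 0.52 for Stab1, with adjusted p-values of 0.381 to 0.989. Cd163 was at 18.7, 57.4 and 100.4 CPM in KO ns and at 18.1, 48.5 and 89.8 in KO LPS, so the ranges nearly coincided. F13a1 was at 58.0, 121 and 180 CPM in KO ns and at 53.2, 112 and 197 in KO LPS. Lyve1 was at 6.22, 23.2 and 37.0 CPM in KO ns and at 3.41, 15.2 and 24.3 in KO LPS. The KO ns and KO LPS ranges thus overlapped for Cd163, F13a1 and Lyve1, as they did for all 10 genes when every KO library was kept. Cbr2 (chromosome 11, 120620311 to 120622851, minus strand) was at 9.25, 24.8 and 42.0 CPM in KO ns and at 4.01, 19.8 and 22.9 in KO LPS. Folr2 was at 1.40, 4.43 and 10.0 CPM in KO ns and 1.61, 2.66 and 5.16 in KO LPS. With SE of 0.27 to 0.52, a change of these genes of the size seen in Pf4 or Clec10a lies outside 2 SE of the estimate.

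**Figure D1:**
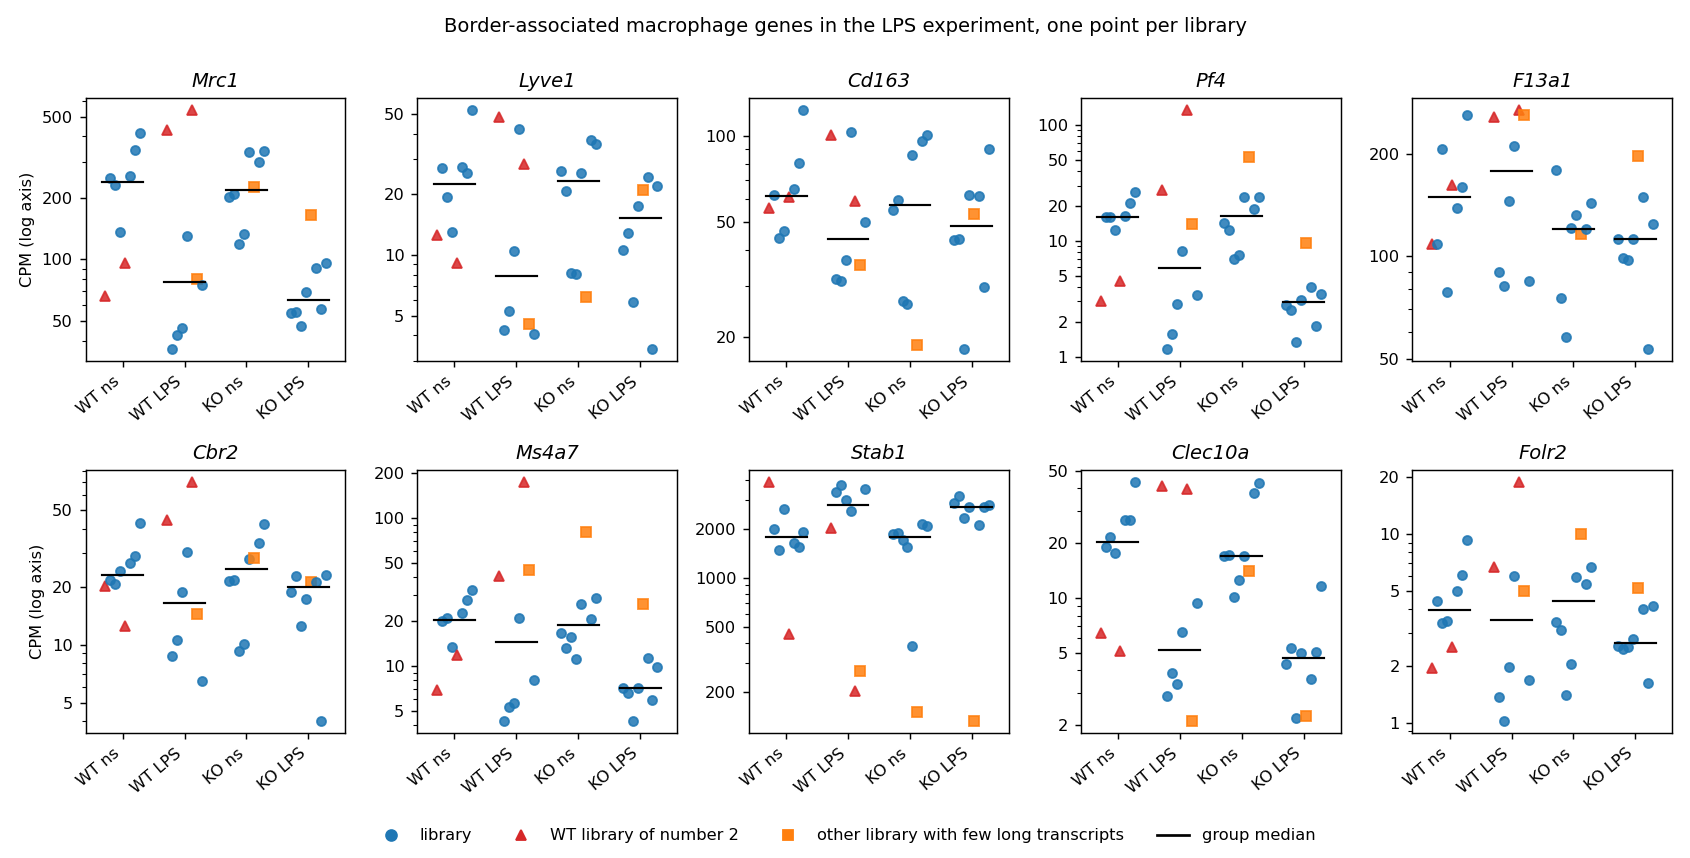
Level of the 10 genes in each sample of the LPS experiment, in CPM on a log axis, by group, with a bar at the group median. Red triangles are the WT libraries of number 2, orange squares the other libraries with few long transcripts; most KO LPS points of Mrc1, Pf4 and Clec10a lie below the KO ns points, while those of Cd163 and F13a1 overlap.

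With the WT libraries grouped as labelled, no change of the 10 genes with LPS was called. With edgeR 0 of the 10 passed, as did 0% of all 15857 genes tested, and 0 of the 10 had an unadjusted p under 0.05. DESeq2 also called 0 of the 10, where it called 732 of 15835 genes. The 10 log2 fold changes ran from -0.57 for Clec10a to 0.64 for Ms4a7. The libraries of number 2 lay among the other treatment's values here too. Mrc1 was at 66.3 and 96.2 CPM in WT ns 1 and WT ns 5, against 136 to 414 in the other WT ns libraries, and at 430 and 538 in WT LPS 1 and WT LPS 6, against 36.2 to 131 in the other WT LPS libraries. Pf4 was at 3.00 and 4.52 CPM in WT ns 1 and WT ns 5, against 12.4 to 26.4, and at 27.3 and 135 in WT LPS 1 and WT LPS 6, against 1.16 to 13.9.

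Without the WT libraries of number 2 (6 WT ns and 6 WT LPS samples remaining), Mrc1, Clec10a, Pf4 and Folr2 were lower with LPS in WT cells. That is 4 of 10 genes called, all lower, beside 30.7% of 16088 genes called and 15.2% called as lower, and the median log2 fold change of the 10 genes was -0.95, beside 0.03 over all genes. Mrc1 had 136, 253 and 414 CPM in WT ns and 36.2, 60.4 and 131 in WT LPS, with no overlap, and a log2 fold change of -2.02 ± 0.24 (adjusted p = 3.66e-07). Clec10a had 17.6, 24.2 and 43.5 CPM and 2.11, 3.62 and 9.43, again with no overlap, and -2.44 ± 0.35 (adjusted p = 6.15e-06). Pf4 had 12.4, 16.4 and 26.4 CPM and 1.16, 3.11 and 13.9, where WT LPS 7, a library with few long transcripts, overlapped the WT ns range, and -2.10 ± 0.43 (adjusted p = 0.000482). Folr2 (chromosome 7, 101489195 to 101506397, minus strand) had 3.37, 4.71 and 9.29 CPM and 1.02, 1.83 and 5.96, with overlap, and -0.97 ± 0.33 (adjusted p = 0.0254). Within library set 1 the log2 fold changes were -2.26, -2.50, -2.98 and -1.32 in that order, all 4 called, and within set 2 they were -1.82, -2.41, -1.30 and -0.68, of which Mrc1 was called (adjusted p = 0.0346). In KO cells in the same fit, Mrc1, Clec10a, Pf4 and Ms4a7 were called, beside 28.5% of genes called and 14.1% called as lower.

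Lyve1 in WT cells gave -1.25 ± 0.52 (adjusted p = 0.0695), with 13.0, 26.3 and 52.2 CPM in WT ns and 4.08, 4.94 and 42.3 in WT LPS. The high value was WT LPS 5, which at 103 CPM was also the highest WT LPS library for Cd163. Cd163 itself gave -0.52 ± 0.34 (adjusted p = 0.254) and F13a1 -0.10 ± 0.32 (adjusted p = 0.849), so neither was called in either genotype. Cbr2 (-0.84 ± 0.36, adjusted p = 0.0801) and Ms4a7 (-0.93 ± 0.41, adjusted p = 0.0880) were not called in WT either. Some of these calls turned on the fit: with the WT libraries of number 2 left out, Lyve1 was called with DESeq2 (-1.27, adjusted p = 0.0366) and in library set 1 alone (-1.53, adjusted p = 0.0460), and Ms4a7 in set 1 alone (-1.81, adjusted p = 2.42e-05) but not in set 2 alone (-0.14, adjusted p = 0.938). With a replicate block in that fit, Lyve1, Cbr2 and Ms4a7 were all called lower, as given at the end.

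Stab1 (chromosome 14, 30860974 to 30890616, minus strand) has the longest exons of the 10 genes, 7999 bases in all, and was low in the libraries with few long transcripts. It was at 132 to 452 CPM in those 5 libraries and at 380 in KO ns 5, whose slope was -0.04, against 1480 to 3893 in the other 26 samples. The part of transcript length in these low values was not tested. Leaving out those 5 and the WT libraries of number 2, Stab1 rose with LPS by 0.71 ± 0.22 on the log2 scale in KO (adjusted p = 0.00881) and by 0.79 ± 0.24 in WT (adjusted p = 0.0107), beside 48% and 45.7% of all genes called. In that fit Ms4a7 was also called lower in WT, at -1.39 ± 0.24 (adjusted p = 5.26e-05), which made 5 of the 10 genes called in KO and 6 in WT. With 48% of all genes called, these counts are near the background. The choice of these libraries was made after their values were seen.

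**Figure D2:**
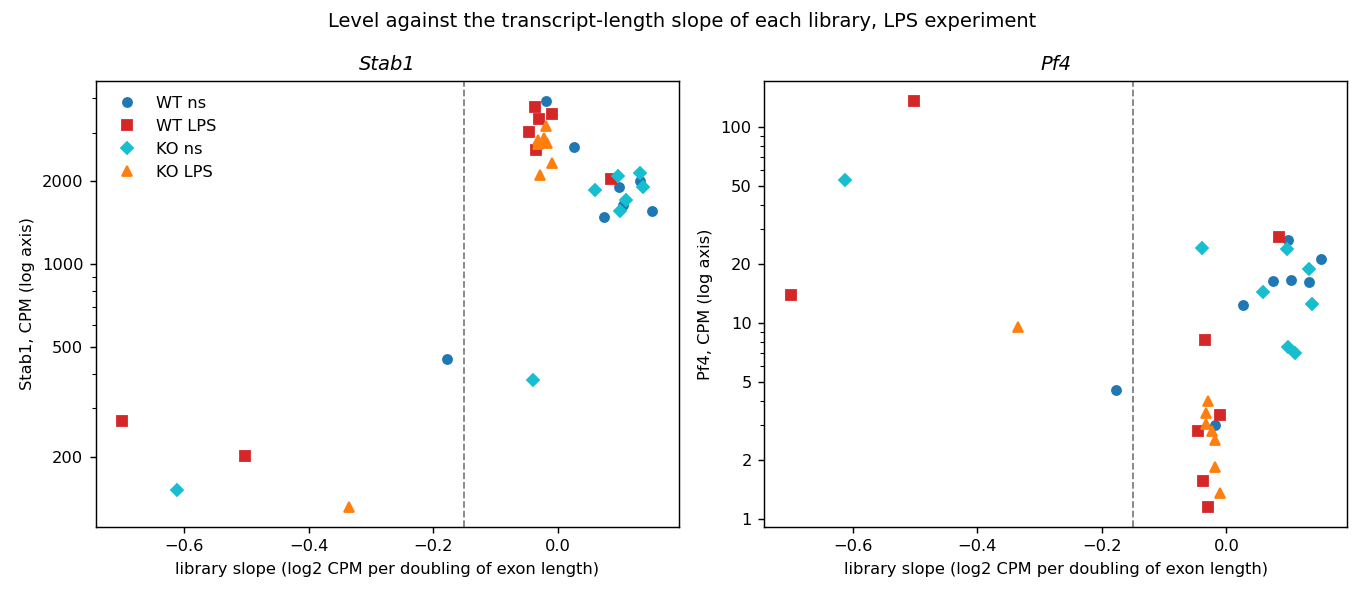
Level of Stab1 and Pf4 (CPM, log axis) against the slope of each library's log2 CPM on log2 exon length, 1 point per sample of the LPS experiment, marked by group as labelled. Points left of the dashed line at -0.15 are the 5 libraries with few long transcripts, where Stab1 is at 132 to 452 CPM.

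**Figure D3:**
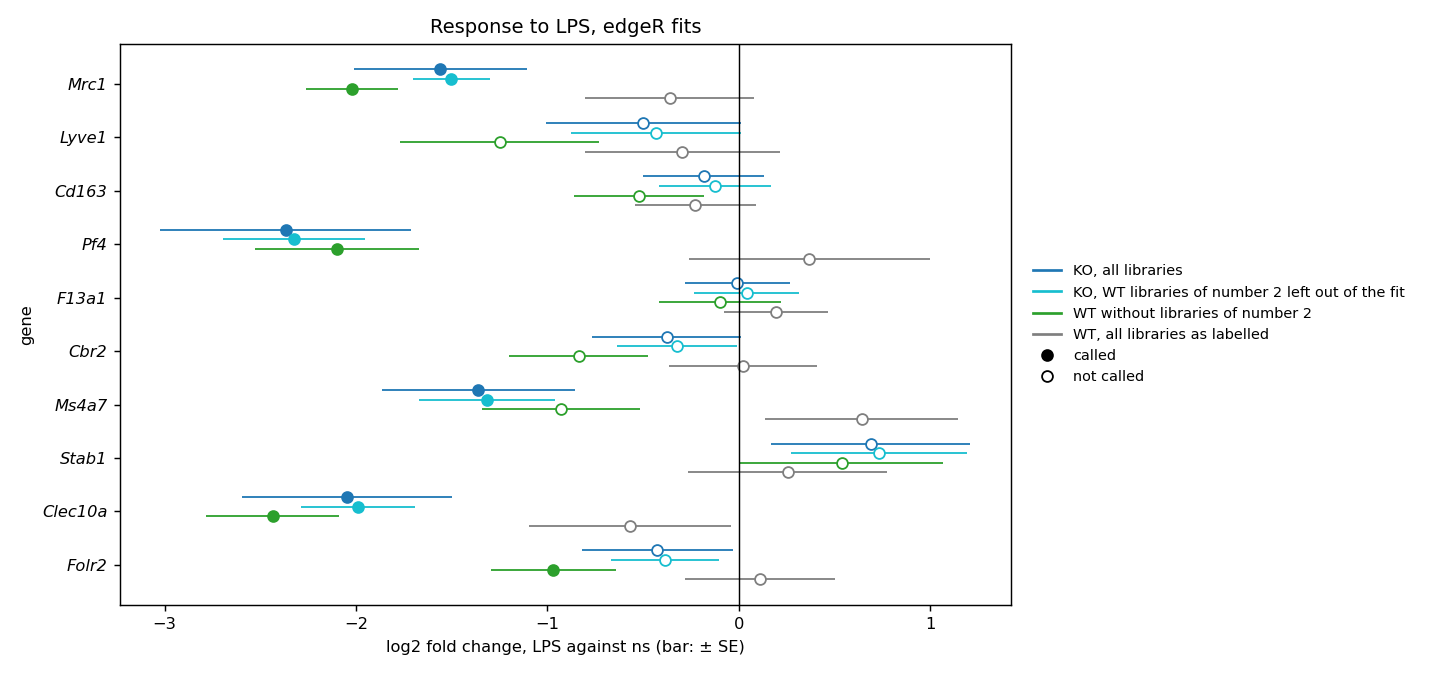
Log2 fold change of LPS against ns with its SE for the 10 genes in KO and WT cells, from edgeR fits with all libraries and without the WT libraries of number 2; filled points are called. Mrc1, Pf4 and Clec10a are called in KO in both fits and in WT without those libraries.

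Loss of P2RY12 was not associated with a called change of any of the 10 genes at either treatment in the edgeR fits. At ns, 0 of 10 were called between KO and WT (0.114% of all genes were called), and 0 had an unadjusted p under 0.05. DESeq2 called 0 of the 10 at ns (157 of 15835 genes). At LPS, 0 of 10 were called (0.126% of all genes), and 4 had an unadjusted p under 0.05 (Pf4, Ms4a7, Clec10a and Mrc1), as had 1170 of all 15857 genes tested. With DESeq2, 5 of the 10 genes and 1455 of all 15835 had an unadjusted p under 0.05 there. It called 135 of 15835 genes. Among them were Pf4 and Ms4a7, lower in KO (-2.52 and -1.78, adjusted p = 0.00844 and 0.0429). The library labelled WT LPS 6 was the highest of its group for both, with 135 CPM of Pf4 and 176 of Ms4a7. With the WT libraries of number 2 left out, 0 of 10 were called at ns (0.0932% of all genes) or at LPS (0.0746%), and 0 had an unadjusted p under 0.05 in either. With edgeR, the change of the LPS response with genotype was called for 0 of 10 genes with all libraries (2 at an unadjusted p under 0.05, as were 1698 of 15857 genes). It was called for 0 without those of number 2, as for 0% of all genes in both. DESeq2 with all libraries called 0 of the 10 and 11 of 15835 genes. There 4 of the 10 had an unadjusted p under 0.05, as had 2115 of 15835 genes. Without the WT libraries of number 2 the 10 edgeR differences in log2 response (KO minus WT) ran from -0.38 ± 0.54 for Ms4a7 to 0.81 ± 0.68 for Lyve1, and 0 had an unadjusted p under 0.05. The difference for Folr2, called in WT alone, was 0.58 ± 0.43 (adjusted p = 0.772). Directions also turned on those libraries: between KO and WT at LPS, 9 of the 10 genes were negative with all libraries and 6 were positive without them, and for the interaction 8 were negative and 8 positive in turn.

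Per kilobase of exon, the order of the 10 genes in the 6 WT ns libraries was led by Stab1, with a median of 222 CPM per kb (185 to 332). Mrc1 followed at 47.0 (25.3 to 77.1), F13a1 at 37.2 (19.6 to 64.9), Pf4 at 23.4 (17.7 to 37.7), Cbr2 at 22.9 (18.5 to 38.4), Cd163 at 14.2 (9.84 to 27.3) and Ms4a7 at 12.8 (7.90 to 19.0). Clec10a at 9.67 (7.05 to 17.4), Lyve1 at 9.09 (4.50 to 18.1) and Folr2 at 3.57 (2.55 to 7.04) closed the order. Stab1 was the 1 gene whose range was clear of its neighbour's, and the ranges of every other pair of neighbours overlapped. In KO LPS the order ran from Stab1 at a median of 342 CPM per kb, F13a1 at 28.1 and Cbr2 at 17.9 to Mrc1 at 11.7 and Cd163 at 10.8, so that Mrc1 stood 4th by median where it had been the second in WT ns and, at 40.7, in KO ns. KO LPS ranges were 13.3 to 49.1 for F13a1, 3.61 to 20.7 for Cbr2, 8.8 to 30.6 for Mrc1 and 4.03 to 20.0 for Cd163. All of these overlapped. The exon lengths come from GENCODE vM21 and leave out introns. Whether introns were counted in the LPS experiment is not known here, so the order holds only if exons alone were counted.

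A second list of 26 genes reported in border macrophages moved in both directions with LPS in KO, 11 lower and 5 higher of 26 tested (22.3% of all genes were called), with a median log2 fold change of -0.97. Lower were the lectins Mgl2 (-4.69 ± 0.97, adjusted p = 0.00124) and Cd209b (-4.47 ± 1.13, adjusted p = 0.00512) and the chemokine Ccl24 (-3.46 ± 0.87, adjusted p = 0.00487). Mgl2 was at 12.0 to 49.2 CPM in KO ns and 0.323 to 1.62 in KO LPS. The lectin Cd209d was also called lower, with 114 counts over the 8 KO ns samples and 5 counts over the 8 KO LPS samples, 6 of which were at 0. Higher were Ms4a6c, an MS4A gene also made by monocytes (3.63 ± 0.72, adjusted p = 0.000947), and Siglec1, the sialic acid receptor CD169 (3.02 ± 0.77, adjusted p = 0.00549). Ms4a6c was at 26.2 to 80.5 CPM in KO ns and 338 to 1014 in KO LPS. In WT without the libraries of number 2, 13 were called lower and 4 higher of 26 (30.7% of all genes were called, 15.2% as lower), with a median of -1.31. Among them Cd209b was at -5.26 ± 0.65, Mgl2 at -4.44 ± 0.44, Ms4a6c at 4.32 ± 0.38, Ccl24 at -3.58 ± 0.51 and Ednrb, an endothelin receptor, at -3.24 ± 0.39 (adjusted p = 6.6e-07, 2.51e-08, 3.89e-09, 5.97e-06 and 5.66e-07). Cd209d had 0 counts in all 6 WT LPS samples and 77 counts in the 6 WT ns samples, which makes it at least 14.8-fold lower over the group (floor of 3 counts over the 6 samples).

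Summed levels of markers of other cells are given beside these results as ranges, without a test. The microglia markers summed to 36900 to 55120 CPM in KO ns and 24130 to 29100 in KO LPS. The monocyte markers summed to 92.3 to 1247 CPM in KO ns and 417 to 874 in KO LPS, and the neutrophil markers to 323 to 10170 and 1091 to 4468. Blood endothelium markers summed to 64.36 to 97.99 and 24.9 to 65.3 CPM. B cell markers summed to 352 to 529 and 123 to 221, and T and NK cell markers to 7.57 to 57.3 and 1.36 to 15.0. Meningeal fibroblast markers summed to at most 2.25 CPM in the 16 KO samples, and astrocyte and neuron markers to at most 9.11 and 20.5. Choroid plexus markers summed to at most 28.9, lymphatic endothelium markers to 16.0 to 33.2 in KO ns and 14.0 to 29.6 in KO LPS, and oligodendrocyte markers to 69.9 to 114 and 25.6 to 86.2. Some of these sums came mostly from a single gene. By mean over the LPS experiment these were Ighm for B cells (270.6 CPM), Pecam1 for blood endothelium (40.6) and Prox1 for lymphatic endothelium (19.6). Of the 6 B cell markers 2 had a mean of at least 1 CPM, and of the 5 lymphatic endothelium markers 1 did. The part of these cells in the falls of Mrc1, Clec10a, Pf4 and Ms4a7 in KO was not tested.

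In WT, with the libraries of number 2 left out, these sums were as follows. Dendritic cell markers summed to 30.0 to 53.8 CPM in WT ns and 11.3 to 18.4 in WT LPS, and within them Cd209a was at 9.38 to 24.5 and 0.0340 to 3.10. The sum does not show whether each of the other dendritic cell markers, such as Zbtb46 and Flt3, was lower too. Platelet markers summed to 20.44 to 28.02 and 4.76 to 12.9 CPM. B cell markers summed to 419 to 494 and 85.2 to 169 CPM, T and NK cell markers to 19.3 to 43.5 and 6.84 to 28.7, and blood endothelium markers to 53.9 to 65.0 and 16.5 to 38.8. The WT LPS range lay below the WT ns range for all of these lists but the T and NK cell markers. Microglia markers summed to 25790 to 44430 and 18840 to 27700 CPM, monocyte markers to 185 to 2314 and 515 to 2529, and neutrophil markers to 370.1 to 17960 and 1883 to 13530, all with overlap. The part of these cells in the falls of Mrc1, Clec10a, Pf4 and Folr2 in WT was not tested.

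In the sex experiment none of the 10 genes was called in any of the 5 comparisons. They varied between animals, and the same animals were high or low for most of them. In males 0 of 10 were called between KO and WT, beside 0.00946% of 31709 genes tested, and in females 0 of 10, beside 0.164%. Averaged over sex 0 were called (0.432% of all genes), between the sexes 0 (0.861%), and for the sex-by-genotype interaction 0 (0%). In each of these 5 comparisons 0 of the 10 genes had an unadjusted p under 0.05 with edgeR without a replicate block (values with the block are given at the end). DESeq2 also called 0 in all 5, with 1 gene at an unadjusted p under 0.05 in females and 2 between the sexes. Of all genes, 1818 and 4444 were at such a p, in that order. Over all genes DESeq2 called from 0 of 31555 for the interaction to 754 of 31555 between the sexes.

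Mrc1 was at 119, 207, 248 and 176 CPM in the male WT animals 1, 3, 4 and 5, and at 189, 135, 181, 288 and 253 in the male KO animals 1 to 5. It was at 126, 115, 222 and 314 CPM in the female WT animals 1, 2, 3 and 5, and at 123, 131, 200, 508 and 583 in the female KO animals 1 to 5. Female KO 4 and 5 were thus the highest of all 18, and female KO 1 and 2 among the lowest.

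Cd163 (chromosome 6, 124281596 to 124307488, plus strand) was at 34.7, 32.004, 61.2, 95.5 and 216 CPM in female KO 1 to 5, and at 27.7, 27.01, 52.1 and 84.2 in female WT 1, 2, 3 and 5. Lyve1 (chromosome 7, 110449814 to 110462160, minus strand) was at 7.49, 4.47, 14.0, 31.1 and 61.5 CPM in female KO 1 to 5, and at 5.37, 9.88, 15.9 and 22.8 in female WT. The ranges overlapped between genotypes for all 10 genes in both sexes.

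The female log2 fold changes were all positive, with a median of 0.65 over the 10 genes (largest 0.88 ± 0.56 for Cd163, adjusted p = 1) beside -0.01 over all genes. Leaving out female KO 5 brought the median to 0.24, and leaving out female KO 4 to 0.43. In males the median was 0.13, with F13a1 the lowest at -0.83 ± 0.61 (adjusted p = 0.864). Without male WT 5 the lowest of the 10 male values was -0.01. The male median was -0.05 without male WT 1, -0.03 without male KO 4 and 0.32 without male WT 4.

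F13a1 (chromosome 13, 37051150 to 37234220, minus strand) was less closely tied to the other genes of the 10 across animals, as the correlations below show. It was highest in male WT 5 at 404 CPM, followed by female KO 5 at 242, female KO 4 at 207 and female WT 2 at 206, and at 46.9 to 147 in the other 14. Male WT 5 and female WT 2 were also the animals with the most RNA of S100a8, a neutrophil gene (12130 and 6585 CPM, against 186 to 1912 in the other 16), and of Ly6c2, a monocyte gene (275 and 152 CPM, against 6.42 to 42.0 in the other 16). The monocyte markers summed to 4520 and 2591 CPM in these animals, against 124 to 727 in the other 16. Their part in the level of F13a1 was not tested. The span of F13a1 overlaps the antisense gene Gm30489 over 103667 bases, and whether counting used strand is not given in the sources used here, so part of its count may belong to that gene.

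Stab1 spanned the narrowest range of the 10 genes relative to its level, at 569 to 821 CPM in male WT, 709 to 845 in male KO, 585 to 973 in female WT and 748 to 1006 in female KO. It was lowest in male WT 5 and female WT 2. The remaining genes spanned 4.03 to 20.9 CPM for Pf4, 4.37 to 27.4 for Cbr2, 7.24 to 25.4 for Ms4a7, 5.73 to 30.5 for Clec10a and 4.79 to 21.1 for Folr2, each with female KO 5 as the highest animal. In this table the counted spans may include introns, so levels are compared between animals only, and not between genes or with the LPS experiment.

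**Figure D4:**
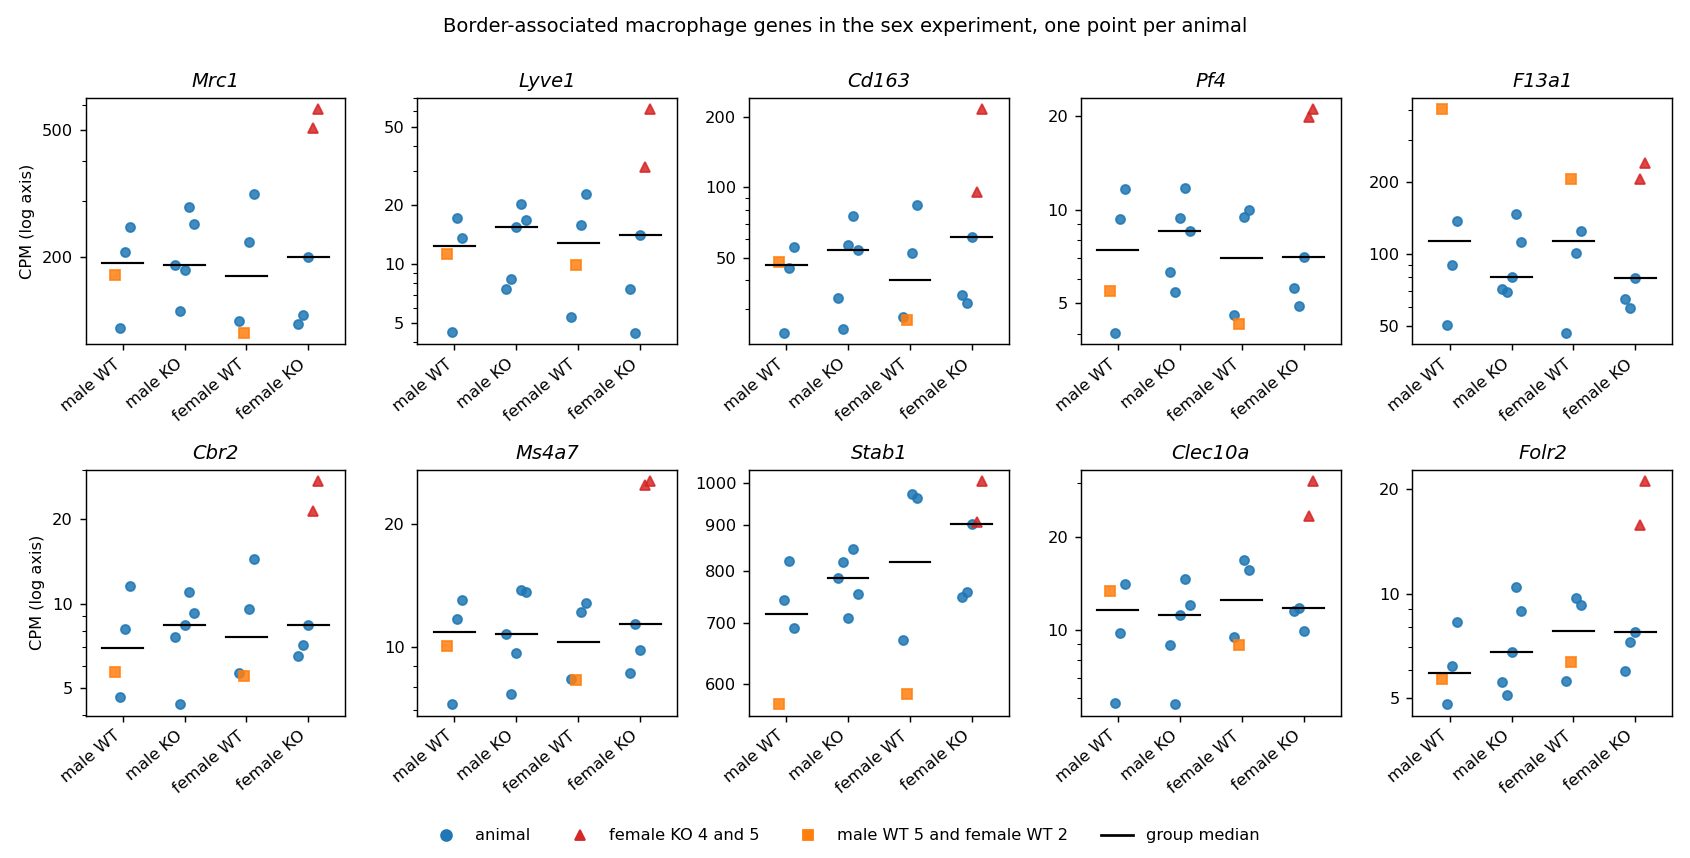
Level of the 10 genes in each of the 18 animals of the sex experiment, in CPM on a log axis, by group, with a bar at the group median. Female KO 4 and 5 (red triangles) are the 2 highest animals for 8 of the genes, and male WT 5 and female WT 2 (orange squares) stand high for F13a1 and low for Stab1.

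The shared rise and fall between animals was described by correlating, across the 18 animals, each gene's deviations of log2 CPM from its group mean. Over the 45 pairs of the 10 genes the median Pearson r was 0.89 (-0.05 to 0.97). The pairs of the 8 genes other than Stab1 and F13a1 ran from 0.82 to 0.97. Against the mean of the other 9 genes, r was highest for Mrc1 at 0.97 and lowest for F13a1 at 0.63 and Stab1 at 0.50. These points share their libraries, depth and scaling.

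In the LPS experiment, over 28 samples without the WT libraries of number 2, the median over the 45 pairs was 0.51 (-0.80 to 0.96), and over all 32 samples 0.65 (-0.74 to 0.97). Without the 5 libraries with few long transcripts as well (25 samples) it was 0.73 (-0.32 to 0.93). There, r against the mean of the other 9 genes was 0.93 for Cd163, 0.925 for Folr2, 0.92 for Pf4, 0.92 for Lyve1 and 0.89 for Mrc1, and -0.20 for Stab1. So Cd163 and Mrc1 deviated together within groups (r = 0.90 over the 25 samples and 0.74 over the 28), although Mrc1 was called with LPS and Cd163 was not. In all correlations of the LPS experiment the deviations were taken from the group mean only. A difference between the library sets, a covariate in the fits, therefore remains in them, and its part was not tested.

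**Figure D5:**
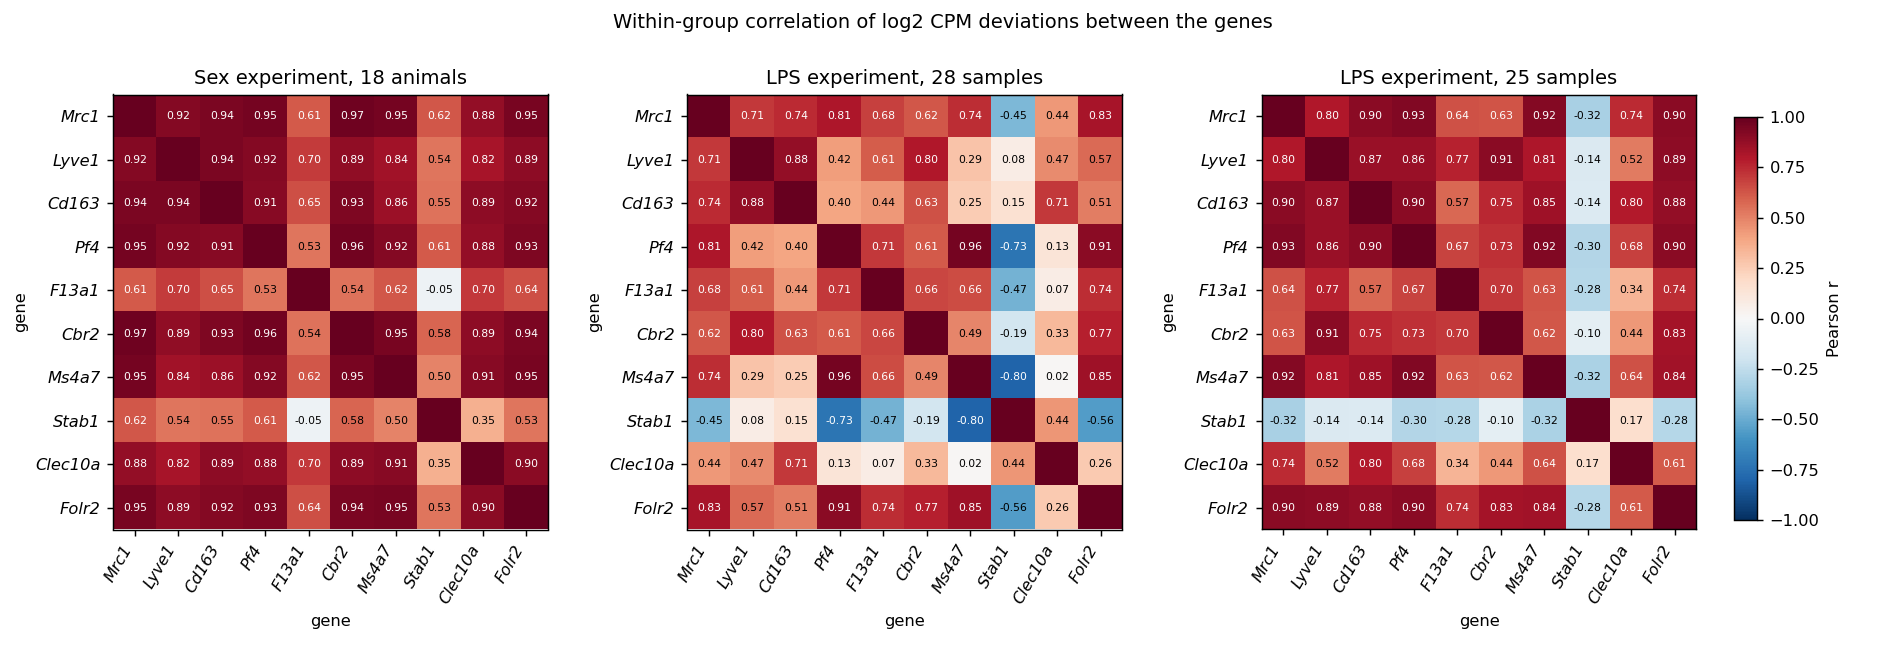
Pearson r between the genes, computed from deviations of log2 CPM from the group mean, in the sex experiment (18 animals), the LPS experiment without the WT libraries of number 2 (28 samples) and without the 5 libraries with few long transcripts too (25 samples). Stab1 stands apart in the LPS panels and F13a1 and Stab1 in the sex experiment, while the other 8 genes correlate at 0.82 or more there.

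Outside the 10 genes, those whose deviations were most like the mean of the 10 across the 18 animals, of 17724 genes at a mean of 1 CPM or more, were Gm52877 (r = 0.97), Ms4a14 (0.96), Igf1 (0.96), Dab2 (0.955), Sh3pxd2b (0.95), Colec12 (0.95), Itsn1 (0.95), Nrap (0.95), Bmp2 (0.94) and Cd38 (0.93). Gm52877 lies antisense inside Cd163 over 9572 bases, and its counts, 54543 over all animals against 133009 for Cd163, may be reads of Cd163. Dab2, an adaptor of endocytosis, Colec12, a scavenger receptor, and Cd38, an enzyme that consumes NAD, were on the second list of border macrophage genes, of which 24 were among the genes compared. In the LPS experiment without the WT libraries of number 2, r was 0.91 for Colec12, 0.83 for Igf1, 0.78 for Cd38, 0.60 for Dab2, 0.53 for Ms4a14, 0.35 for Itsn1, 0.13 for Nrap and -0.06 for Sh3pxd2b, and Gm52877 and Bmp2 were not among the genes compared there. Igf1, a growth factor, was at 5.08 to 22.9 CPM across the 18 animals.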

How the data were processed

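The deposited files are 2 tables of read counts per gene, whole numbers as the authors' counting gave them. Of the low counts, 79.0% to 89.2% were even in the libraries of the sex experiment, against 39.7% to 45.6% in the LPS experiment. A count may therefore not stand for the same unit in the 2 tables, and the reason was not tested. Per the submitters' processing notes, FastQC, STAR 2.6.1, featureCounts of Subread, DESeq2 and the build GRCm39 were used, and the strand setting is not given in the sources used here. In the table of the sex experiment the length of a gene equals its whole span for all 50565 genes, so introns may lie within the counted spans. The labels also list 6 repeat libraries, not analysed here. WT LPS 8 and WT LPS 9 differed far less than any other pair of libraries (chi-square per degree of freedom 1.86, next lowest 8.32), and were summed and counted as 1 sample.

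Each table was fitted by itself with edgeR 4.0.16 (quasi-likelihood test, robust, TMM scaling, filterByExpr) in R 4.3.3, with all groups in 1 model, the library set as a covariate in the LPS experiment, and Benjamini-Hochberg adjustment over all genes tested. A gene is called at an adjusted p under 0.05. The SE is the log2 fold change over the square root of F. DESeq2 1.42.0, RLE scaling, other filters, single library sets, left-out libraries and a replicate block were alternatives. Those without the 5 libraries with few long transcripts (slope under -0.15 over 7602 genes), and the combinations with the WT libraries of number 2, were chosen after seeing the data. The edgeR script was tested on simulated data, in which genes varied independently and every library followed its label. That run checked the code and does not cover these features of the real libraries.

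The members and gene lists were chosen with earlier results of these data known. Named outside the 10 are P2ry12 and Saa3, up to 6 called genes of the second border list per LPS comparison with the largest fold change, the 10 genes most like the mean of the 10, and, for some marker lists, the highest gene. Cd209a, Flt3, Zbtb46, Gp5, Gp6, Ppbp, S100a8 and Ly6c2 were named after their values were seen.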

Additional observations from a re-analysis of the deposited data

Results flagged for a closer look

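A single library lay far from the rest of its group (the gap to the nearest library, over the range of the group, was above Dixon's 95% critical value) in 3 of 80 combinations of a gene and a group. Chance alone marks about 1 in 20 groups. The 80 combinations share libraries and many of the genes vary together, so no conclusion is drawn from the count.

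Stab1 was at 452.4 CPM in the library labelled WT ns 5, the lowest of the 8 WT ns libraries, and at 132.1 CPM in KO LPS 5, the lowest of the 8 KO LPS libraries. Both libraries also held little RNA of long transcripts (slopes of -0.18 and -0.34), and the part of this in the level of Stab1 was not tested. Cbr2, a carbonyl reductase, was at 4.008 CPM in KO LPS 7, the lowest of 8, a library that was also the lowest of its group for Lyve1, at 3.41 CPM.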

How the results depend on the processing

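For the counts of called genes, 196 alternatives stayed within 1.5 times the value reported and 10 did not. For LPS in KO, 4 genes were called with all libraries. With library set 1 alone 1 was called (4815 of 15719 genes tested were called). It was Stab1, higher with LPS, and none of those 4 genes kept its call. With library set 2 alone 0 were called (0 of 16250 genes). For LPS in WT, 0 were called as labelled. Without the WT libraries of number 2 the count was 4 (4934 of 16088 genes). It was 4 without the libraries of number 2 in every group (5739 of 15816 genes). With the WT libraries of number 2 left out it was also 7 with a replicate block (5758 of 16088 genes), 5 with DESeq2 (5696 of 16023), 7 in library set 1 alone (6792 of 15939), 1 in library set 2 alone (547 of 16533) and 6 without the 5 libraries with few long transcripts (7393 of 16163). KO against WT at LPS gave 2 with DESeq2 (135 of 15835 genes). Leaving out each animal of the sex experiment in turn gave 0 called genes in all 5 comparisons. A single library set holds fewer samples than the whole experiment. The cause of these differences was not tested.

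In LPS in KO and LPS in WT, signs changed in 62 fits of single genes, none of which was called as reported. The same was not counted for the genotype comparisons, whose directions are in the results. For LPS in KO, where the 4 genes concerned were negative as reported, positive log2 fold changes were obtained as follows. In library set 1 alone, they were 0.03 for Cd163, 0.22 for Cbr2 and 0.07 for Folr2. In set 1 alone without the WT libraries of number 2, they were 0.05 for Cd163, 0.25 for Cbr2 and 0.09 for Folr2. Without a filter on low counts, it was 0.00 for F13a1. With only the groups compared in the fit, it was 0.03 for F13a1. In library set 2 alone, it was 0.13 for F13a1. Without the WT libraries of number 2, it was 0.04 for F13a1. Without the libraries of number 2 in every group, it was 0.05 for F13a1. With a replicate block and the WT libraries of number 2 left out, it was 0.03 for F13a1. In set 2 alone without the WT libraries of number 2, it was 0.09 for F13a1. For LPS in WT, where the 6 genes concerned were positive as labelled, negative log2 fold changes were obtained as follows. With a replicate block, they were -0.56 for Pf4, -0.19 for Cbr2, -0.06 for Stab1 and -0.17 for Folr2. In library set 1 alone, they were -0.53 for Pf4, -0.07 for Cbr2, -0.13 for Ms4a7 and -0.24 for Folr2. Without the WT libraries of number 2, they were -2.10 for Pf4, -0.10 for F13a1, -0.84 for Cbr2, -0.93 for Ms4a7 and -0.97 for Folr2. Without the libraries of number 2 in every group, they were -2.12 for Pf4, -0.15 for F13a1, -0.88 for Cbr2, -0.95 for Ms4a7 and -1.01 for Folr2. With a replicate block and the WT libraries of number 2 left out, they were -2.41 for Pf4, -0.22 for F13a1, -1.04 for Cbr2, -1.29 for Ms4a7 and -1.23 for Folr2. With DESeq2 without the WT libraries of number 2, they were -2.11 for Pf4, -0.11 for F13a1, -0.85 for Cbr2, -0.94 for Ms4a7 and -0.98 for Folr2. In set 1 alone without the WT libraries of number 2, they were -2.98 for Pf4, -0.28 for F13a1, -0.77 for Cbr2, -1.81 for Ms4a7 and -1.32 for Folr2. In set 2 alone without the WT libraries of number 2, they were -1.30 for Pf4, -0.93 for Cbr2, -0.14 for Ms4a7 and -0.68 for Folr2. Without the 5 libraries with few long transcripts, they were -0.93 for Pf4, -0.31 for Cbr2, -0.39 for Ms4a7 and -0.45 for Folr2. Without those 5 and the WT libraries of number 2, they were -2.45 for Pf4, -0.31 for F13a1, -0.80 for Cbr2, -1.39 for Ms4a7 and -1.10 for Folr2. Without a filter on low counts, it was -0.02 for Cbr2. With the summed pair of WT LPS libraries taken as separate samples, they were -0.11 for Cbr2 and -0.01 for Folr2. A further 22 fits gained and 13 lost the call with the same sign.

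Replicate numbers were not taken to pair the samples, and fits with a replicate block are given as an alternative. In the LPS experiment the correlations that follow cannot decide on pairing. They include the WT libraries of number 2, which went against their treatment labels. The correlation of deviations between same-numbered samples of different groups ran from -0.48 to 0.35 (mean 0.01) in the sex experiment and from -0.66 to 0.80 (mean 0.24) in the LPS experiment. Between samples of other numbers it ran from -0.44 to 0.44 (mean -0.0008) and from -0.58 to 0.68 (mean 0.11), so the mean for same numbers was higher in the LPS experiment, and 4 of 18 and 11 of 31 samples correlated best with their own number. With the replicate block, 0 of the 10 genes were called in each comparison of the sex experiment. For LPS in KO 4 were called (4336 of 15857 genes), and for LPS in WT as labelled 0 (0 of 15857). In the edgeR fit of the sex experiment with the block, 5 of the 10 genes had an unadjusted p under 0.05 between the sexes (3863 of 31709 genes). All 10 were higher in females there, with a lowest adjusted p of 0.0641. Averaged over sex, 2 of the 10 had an unadjusted p under 0.05 between KO and WT (2330 of 31709 genes). For LPS in WT without the libraries of number 2, the block added Lyve1 (-1.94, adjusted p = 0.00464), Cbr2 (-1.04, adjusted p = 0.0344) and Ms4a7 (-1.29, adjusted p = 0.0117) to the 4 called genes. The lowest count of any of the 10 genes in a library, which sets the largest counting error of its experiment, was 19 for Folr2 in the LPS experiment and 296 for Pf4 in the sex experiment. Most low counts of the sex experiment were even, so its counts may not stand for as many independent reads. Counting error is therefore not compared between the experiments.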
